A study of Mus musculus with 56 samples.

Results

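The 9 genes described here are parts of the interferon signalling pathway: the receptor chains Ifnar1, Ifnar2 and Ifngr1, the signal transducer Stat2, the interferon regulatory factors Irf9, Irf7, Irf1 and Irf8, and the inhibitor Socs1. They were taken by symbol, and all 9 were found among the 55011 gene symbols of the count table. The data are bulk RNA sequencing of regulatory T (Treg) cells in 56 libraries, 51 from mice and 5 from cultures. The mice were C57BL/6 animals with the genotype vTreg53 Tg+, a T cell receptor transgene, and feeding began at 12 weeks of age. The mice of the HFD groups were fed HFD and those of the NCD groups NCD, and both were sampled after 2, 4, 8 and 16 weeks; a further group was taken at week 0 (the labels do not spell out either diet). Treg cells bearing the transgenic clonotype were sorted from visceral adipose tissue (VAT) and from spleen, at 1000 cells per library. Each of the 9 groups per tissue had 3 libraries, apart from HFD week 4 and NCD week 16 in VAT and NCD week 4 in spleen, which had 2. In the culture experiment, VAT Treg cells came from mice of 8 to 10 weeks that carried 2 reporter alleles, PPARgamma-tdT KI/KI and Foxp3-GFP KI/y, and had been given 2 doses of IL-33 to expand these cells. The sorted tdT+ cells were kept for 3 days with IL-2 at 2000 U/ml and IL-33 at 10 ng/ml. IFNα at 50 ng/ml was added to 2 cultures and left out of 3 control cultures, and Foxp3/GFP+ cells were then sorted again. All mouse groups share the transgene, so that cells of 1 receptor specificity stand for VAT Treg cells here, and all cultures share the IL-33 treatment and the reporter alleles.

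Type I interferons, to which IFNα belongs, bind a receptor made of the IFNAR1 and IFNAR2 chains, and interferon-γ binds a separate receptor whose ligand-binding chain is IFNGR1. In type I signalling STAT2 and IRF9 act as parts of the complex ISGF3, which binds interferon-stimulated response elements (ISRE), while interferon-γ signalling acts on gamma-activated sites (GAS). IRF7 amplifies type I interferon responses, IRF1 drives many interferon-γ target genes, IRF8 is best known from myeloid and B cell development, and SOCS1 inhibits the kinases bound to cytokine receptors.

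The promoters of 5 members are shown: those of Irf7 and Stat2, the members with the largest log2 increases with IFNα, those of Irf1 and Irf8, the members called lower with IFNα, and that of Socs1, which holds 2 ISRE cores. They are printed from RefSeq (GRCm38.p6), from 250 bases before to 50 bases after the start site. Capitals mark matches to the core of the ISRE (GAAA, any 2 bases and GAAA again, searched on both strands, so that TTTC pairs mark the other strand) or to the GAS (TTCNNNGAA, the same on both strands).
Irf7 promoter, chr7:141266375-141266674, minus strand: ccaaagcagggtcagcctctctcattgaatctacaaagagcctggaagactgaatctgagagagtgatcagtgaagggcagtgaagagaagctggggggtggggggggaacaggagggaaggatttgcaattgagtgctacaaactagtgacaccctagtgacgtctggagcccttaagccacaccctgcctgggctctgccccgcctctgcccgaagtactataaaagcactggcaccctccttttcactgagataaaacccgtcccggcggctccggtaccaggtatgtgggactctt
Stat2 promoter, chr10:128270248-128270547, plus strand: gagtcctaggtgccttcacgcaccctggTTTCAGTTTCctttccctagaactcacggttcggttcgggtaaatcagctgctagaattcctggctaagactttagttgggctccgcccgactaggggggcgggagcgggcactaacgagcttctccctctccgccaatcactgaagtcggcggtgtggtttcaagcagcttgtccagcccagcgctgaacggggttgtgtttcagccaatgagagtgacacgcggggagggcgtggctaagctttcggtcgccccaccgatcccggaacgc
Irf1 promoter, chr11:53769764-53770063, plus strand: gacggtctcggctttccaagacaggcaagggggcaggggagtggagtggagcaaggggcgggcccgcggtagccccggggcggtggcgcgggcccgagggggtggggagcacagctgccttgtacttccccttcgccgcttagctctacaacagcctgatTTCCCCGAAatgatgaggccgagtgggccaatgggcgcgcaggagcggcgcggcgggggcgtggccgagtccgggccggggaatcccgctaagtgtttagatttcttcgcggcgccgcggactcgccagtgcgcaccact
Irf8 promoter, chr8:120736108-120736407, plus strand: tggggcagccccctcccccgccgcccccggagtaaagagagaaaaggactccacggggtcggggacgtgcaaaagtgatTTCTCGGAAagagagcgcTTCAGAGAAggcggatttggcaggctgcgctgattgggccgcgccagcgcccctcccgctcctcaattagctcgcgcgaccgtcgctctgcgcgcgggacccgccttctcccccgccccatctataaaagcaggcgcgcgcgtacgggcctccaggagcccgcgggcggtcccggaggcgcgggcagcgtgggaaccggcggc
Socs1 promoter, chr16:10785487-10785786, minus strand: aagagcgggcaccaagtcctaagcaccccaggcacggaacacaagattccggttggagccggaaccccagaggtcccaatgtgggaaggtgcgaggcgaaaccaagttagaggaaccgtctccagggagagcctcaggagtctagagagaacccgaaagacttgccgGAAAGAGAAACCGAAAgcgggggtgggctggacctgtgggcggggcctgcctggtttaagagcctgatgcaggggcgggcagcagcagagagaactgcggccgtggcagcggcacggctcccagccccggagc
An ISRE core was found in the windows of Stat2, at 222 bases before the start site on the other strand, and of Socs1, as a pair of overlapping matches at 83 and 77 bases before it. Among all 32851 RefSeq promoters of this length, 3.44% held an ISRE core and 8.3% held a GAS. RefSeq gave 2 windows each for Irf1, Irf8 and Irf9. The printed Irf1 window held 1 GAS, 90 bases before the start site, the printed Irf8 window held 2, at 171 and 153 bases before it, and the second windows of Irf1 and Irf8 held neither motif. Ifnar1 and Ifnar2, not printed, held 1 GAS each, at 5 and 214 bases before the start site. The windows of Ifngr1, Irf7 and both of Irf9 held neither motif. A match describes letters in these windows and was not tested as a binding site.

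Library totals were 3319873 to 6091439 counts in VAT, 3248686 to 5826965 in spleen and 5408696 to 8764390 in culture, and 3 counts, taken as the floor of detection, corresponded to 0.492 to 0.904, 0.515 to 0.923 and 0.342 to 0.555 counts per 1000000 counts of the library (CPM), counting error only. Every member lay above that floor in each library, with its lowest count at 57 (Irf7 in a VAT library). Foxp3, which defines Treg cells, was at 903 to 1145 CPM in VAT, 701 to 911 CPM in spleen and 538 to 1238 CPM in culture. The VAT Treg marker Pparg was at 17.8 to 122 CPM in VAT and 0 to 7.76 CPM in spleen, which fits the titles of the spleen libraries rather than their tissue label of visceral adipose tissue. In the cultured cells, sorted for a PPARγ reporter before culture, Pparg was at 3.95 to 7.95 CPM. The labels do not say whether replicates came from separate mice, so p-values measure the spread between these libraries. Of 13 interferon ligand genes, Ifng alone passed the filter on low counts in the mouse libraries and none did in culture; Ifng was at 0 to 11.7 CPM in VAT, 0 to 5.46 CPM in spleen and 0 to 0.456 CPM in culture, and was called higher in VAT than in spleen without HFD (1.75 ± 0.53, edgeR adjusted p = 0.00460).

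Per kilobase of exon, a rough way to set levels of genes against each other, Ifngr1 was the most abundant member in both tissues. It had 760 ± 132 CPM per kb in VAT (SD, n = 25 libraries) and 226 ± 39.8 in spleen (SD, n = 26). Irf1 followed with 97.0 ± 33.2 CPM per kb in VAT and 145 ± 21.3 in spleen, and Ifnar1 with 59.5 ± 9.77 in VAT and 70.9 ± 6.87 in spleen. Irf7 was the least abundant in VAT, with 7.82 ± 2.87 CPM per kb, and Irf8 in spleen, with 6.65 ± 2.43. The exon length joins all annotated transcripts of a gene. For Irf7 it was 3776 bases in 1 block, which is the whole gene, so its rank depends on that length. The plot of CPM by tissue, diet and week shows all 51 mouse libraries.

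**Figure D1:**
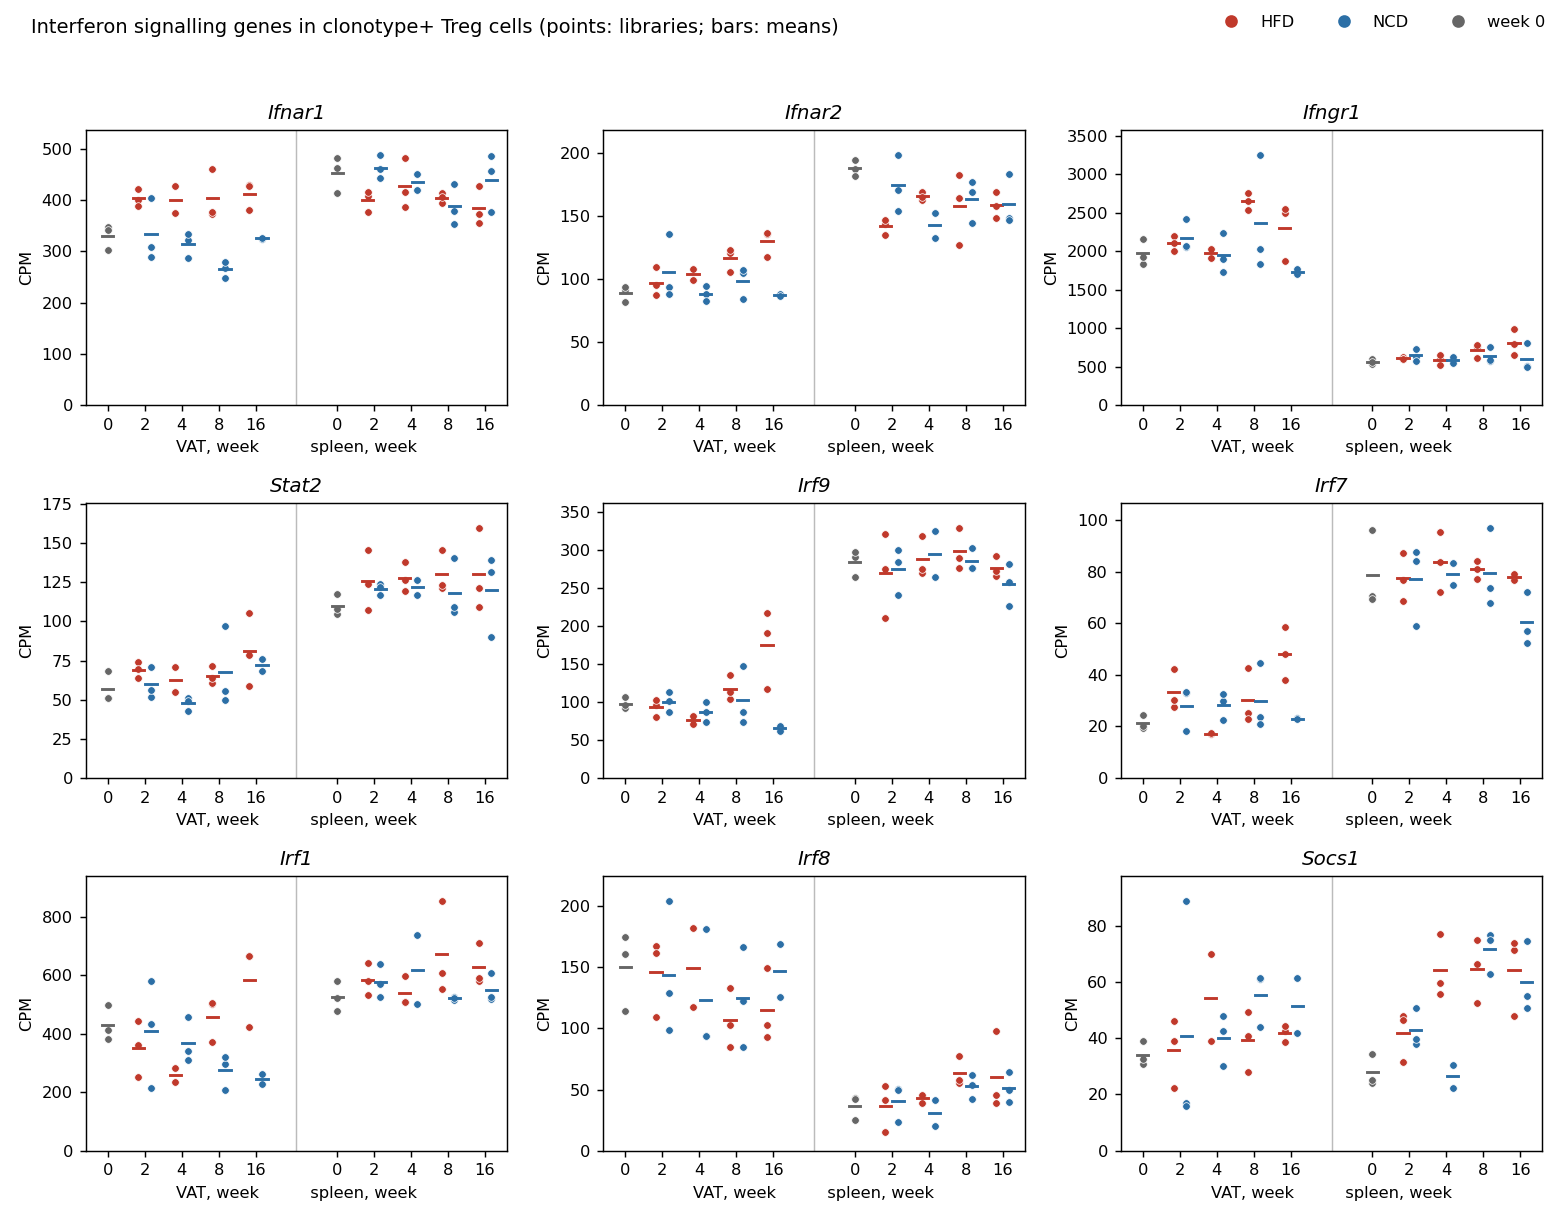
CPM (linear axes from 0) of the 9 genes in each mouse library, by week, with VAT left and spleen right in each panel, HFD in red, NCD in blue and week 0 in grey; points are libraries and bars are group means. Ifngr1 and Irf8 sit higher in VAT than in spleen, Irf9 and Irf7 sit lower, and the HFD week 16 libraries of VAT stand above the NCD libraries of that week for Irf9 (117 to 217 against 61.9 to 68.4 CPM) and Irf1 (423 to 665 against 227 to 263 CPM).

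The first comparison set VAT against spleen Treg cells in mice not on HFD, as the mean difference over week 0 and the 4 NCD weeks. The type I side of the pathway (both receptor chains, Stat2, Irf9 and Irf7) and Irf1 were lower in VAT, whereas the interferon-γ receptor chain Ifngr1 and Irf8 were higher. By edgeR's quasi-likelihood test with Benjamini-Hochberg adjustment over 15601 genes, 2 members were called higher in VAT and 6 lower at an adjusted p under 0.05, beside which 59.1% of all genes tested were called in either direction, 29.1% higher and 30% lower (4533 and 4688 genes, and 3243 and 6827 with library-size scaling). Because each library pools 1000 cells, fewer cells expressing a gene and less RNA per cell cannot be told apart.

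Among the receptor chains, Ifngr1 ranged from 1703 to 3254 CPM in the 25 VAT libraries (median 2051), against 499 to 984 CPM in the 26 spleen libraries (median 611). The tissues did not overlap, and the log2 fold change without HFD was 1.96 ± 0.08 (SE; adjusted p = 8.5e-22). Ifnar2 averaged 94.2 ± 14.1 CPM in VAT and 167 ± 20.7 CPM in spleen without HFD (SD, n = 14 each), a log2 fold change of -0.60 ± 0.06 (adjusted p = 1.0e-11), with 13 of 14 VAT libraries below every spleen library. Ifnar1 averaged 313 ± 38.7 CPM in VAT and 436 ± 42.7 CPM in spleen (n = 14 each), a log2 fold change of -0.26 ± 0.05 (adjusted p = 2.3e-05), again with 13 of 14 VAT libraries below all of spleen.

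Stat2 ranged from 42.9 to 105 CPM in VAT (median 63.8) and from 89.8 to 160 CPM in spleen (median 122). Its log2 fold change without HFD was -0.76 ± 0.09 (adjusted p = 7.0e-10). Irf9, its partner in ISGF3, ranged from 61.9 to 217 CPM in VAT (median 96.1) and from 211 to 329 CPM in spleen (median 276). The ranges overlapped through 1 VAT library of HFD week 16. Without HFD all 14 VAT libraries lay below all 14 spleen libraries, at a log2 fold change of -1.42 ± 0.09 (adjusted p = 1.2e-18). Irf7 ranged from 17.2 to 58.7 CPM in VAT (median 25.2) and from 52.4 to 97.1 CPM in spleen (median 77.1). Its log2 fold change without HFD was -1.32 ± 0.11 (adjusted p = 7.3e-14), and again no VAT library without HFD reached the spleen range.

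Irf1 averaged 353 ± 113 CPM in VAT and 555 ± 68.3 CPM in spleen (SD, n = 14 each), a log2 fold change of -0.51 ± 0.11 (adjusted p = 1.5e-04), with 12 of 14 VAT libraries below all of spleen. Irf8 went the other way, with 84.5 to 204 CPM in VAT (median 125) and 15.6 to 97.5 CPM in spleen (median 45.3). Its log2 fold change without HFD was 1.93 ± 0.18 (adjusted p = 3.4e-11), with all 14 VAT libraries above all 14 spleen libraries. Socs1 averaged 43.9 ± 19.5 CPM in VAT and 47.1 ± 19.5 CPM in spleen and was not called (log2 fold change 0.26 ± 0.17, adjusted p = 0.200). The fold change, positive although the mean CPM was lower in VAT, was 0.04 with library-size scaling and -0.00107 without NCD replicate 1 of week 2 in VAT.

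On HFD, VAT against spleen gave 3 members higher and 5 lower, beside 47.4% of all genes called, 22.3% higher and 25.1% lower (3475 and 3923 genes, and 2236 and 6347 with library-size scaling). The same 2 genes led the higher side, Ifngr1 at 1.95 ± 0.09 (adjusted p = 2.5e-20) and Irf8 at 1.58 ± 0.20 (adjusted p = 3.1e-08). The lower side held Irf7 at -1.19 ± 0.13, Irf9 at -1.15 ± 0.09, Stat2 at -0.68 ± 0.10, Irf1 at -0.39 ± 0.12 and Ifnar2 at -0.27 ± 0.07 (adjusted p at most 0.00768). Ifnar1 was called higher on HFD at 0.22 ± 0.06 (adjusted p = 0.00100) under TMM normalization, but its CPM was 405 ± 29.5 in VAT and 404 ± 32.5 in spleen (SD, n = 11 and 12). With plain library-size scaling, an alternative added after seeing the data, its change was 0.00 (adjusted p = 0.987). That scaling lowered the median over all genes by 0.22 in the comparison without HFD and by 0.21 on HFD (log2), and each member's VAT over spleen change by a like amount. It left the directions of the other 7 called members on HFD and of all 8 without HFD as they were, while Socs1 on HFD became lower (-0.45, adjusted p = 0.0409).

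**Figure D2:**
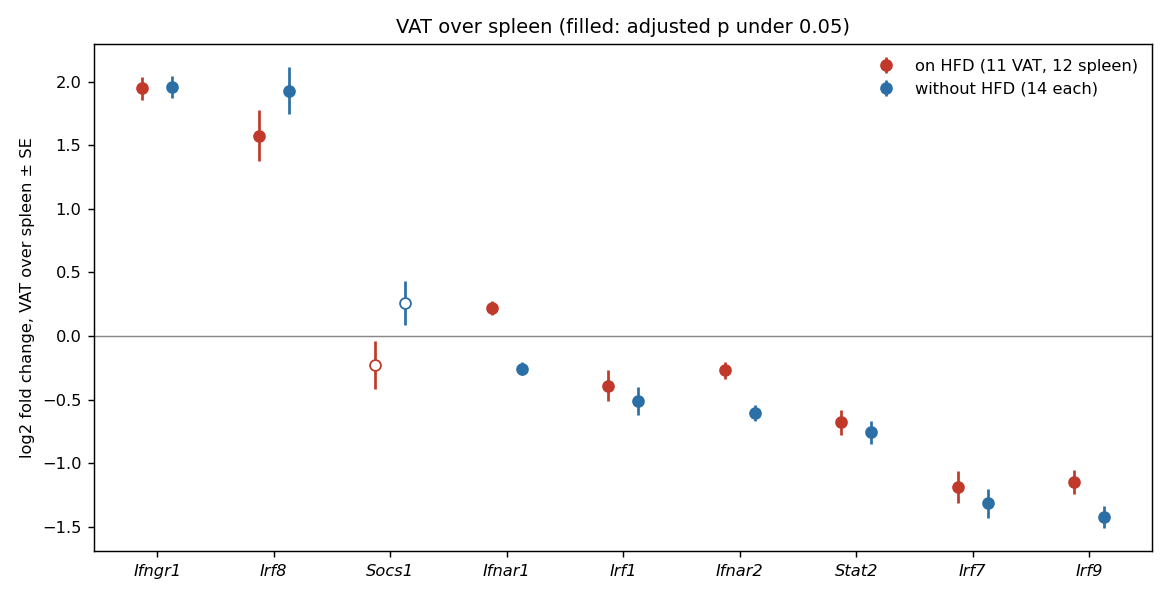
Log2 fold change (linear axis, ± SE) of VAT over spleen for the 9 genes, on HFD in red (11 VAT and 12 spleen libraries) and without HFD in blue (14 each), filled where the adjusted p was under 0.05. Ifngr1 and Irf8 lie above 1.5 in both, Irf9 and Irf7 lie below -1, and Ifnar1 changes side between 0.22 on HFD (0.00 with library-size scaling) and -0.26 without it.

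These tissue differences came with differences in other gene groups. The summed CPM of 20 immediate early and stress genes was 14813 to 42018 in VAT and 2901 to 3982 in spleen. That of 12 macrophage and monocyte markers was 607 to 2244 in VAT and 86.0 to 435 in spleen. The macrophage list holds Ccr2, which VAT Treg cells also express, and Cd14, a defining marker, was at 0 in all spleen libraries. The summed CPM of 8 regulatory T cell markers was 6843 to 9526 in VAT and 4288 to 6508 in spleen, and that of 7 VAT Treg genes 3118 to 8896 in VAT and 450.4 to 1181 in spleen. That of 8 endothelial and erythroid markers was 34.2 to 147 in VAT and 168 to 409 in spleen. The tissues overlapped in the sums of the other 6 marker lists, among them 8 plasmacytoid dendritic cell markers at 70.8 to 255 CPM in VAT and 75.3 to 138 CPM in spleen. The part of these genes in the results was not tested.

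The second comparison set HFD against NCD within VAT at each week, and the calls in VAT came at the later weeks: Ifnar1 was higher at week 8, and Irf9 and Irf1 were higher at week 16. No member was called lower at any week. By edgeR's test over 14164 genes no member was called at week 2, beside 0.0565% of all genes (8 higher and 0 lower, and 3 and 1 with library-size scaling), or at week 4, beside 0.0212%. DESeq2 and limma voom also called 0 members in these weeks. At an unadjusted p under 0.05 by edgeR was 1 member in each week, beside 1429 and 1385 of the 14164 genes. At week 8, 1 member was called higher, beside 0.833% of all genes, and at week 16, 2 were, beside 4.31%. Over all genes week 16 gave 611 higher and 698 lower, and 878 and 506 with library-size scaling, which moved the median over all genes by 0.12 (log2). That scaling moved it by -0.11 at week 2, by 0.12 for HFD week 16 over HFD week 2 and by 0.15 for the week 16 difference between the tissues.

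Ifnar1, the type I receptor chain, had 373, 377 and 461 CPM on HFD at week 8, against 248, 268 and 280 CPM on NCD. All 3 HFD libraries lay above the NCD libraries, and the log2 fold change was 0.58 ± 0.12 (edgeR adjusted p = 0.0104). The call did not hold without NCD replicate 1, NCD replicate 2 or HFD replicate 3 (adjusted p 0.0506 to 0.0838). Over weeks 2, 4, 8 and 16 together Ifnar1 averaged 405 ± 29.5 CPM on HFD and 308 ± 41.5 CPM on NCD (SD, n = 11 each), and the mean log2 fold change of the 4 weeks was 0.40 ± 0.06 (adjusted p = 2.7e-04), which held in all 29 alternatives. It was the 1 member called for the mean of weeks, beside 2.34% of genes called higher. By week its log2 fold changes were 0.38 ± 0.12, 0.41 ± 0.13, 0.58 ± 0.12 and 0.23 ± 0.13, the smallest at week 16 under TMM normalization. Over all settings run, week 2 ranged from 0.27 to 0.55 and week 16 from 0.18 to 0.34. Which of these 2 weeks held the smaller change thus depended on the setting. The highest group mean in VAT, 412 ± 27.8 CPM on HFD at week 16, stood beside 325 and 326 CPM in the 2 NCD libraries of that week. Group means at weeks 2, 4, 8 and 16 were 403, 400, 404 and 412 CPM on HFD, against 333, 314, 265 and 325 CPM on NCD. NCD week 8, the NCD side of the week 8 call, held the lowest group mean in VAT. In spleen the mean change of Ifnar1 was -0.09 ± 0.05 and was not called (adjusted p = 0.433). The VAT effect exceeded the spleen effect by 0.48 ± 0.08 (adjusted p = 3.3e-04), also in all 52 alternatives. It was the 1 member for which this difference was called, beside 1.08% of genes higher.

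Ifnar2, the other chain of the type I receptor, had 136, 118 and 137 CPM on HFD at week 16, against 87.7 and 86.3 CPM on NCD. The groups did not overlap, and the log2 fold change of 0.46 ± 0.15 did not pass (adjusted p = 0.0571). It did pass by DESeq2 (adjusted p = 0.0394), without HFD replicate 2 (0.0484) and with library-size scaling (0.0194). Ifngr1 had 2498, 2546 and 1877 CPM on HFD and 1703 and 1769 CPM on NCD, with a log2 fold change of 0.29 ± 0.17 (adjusted p = 0.353).

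Irf9, the DNA-binding part of ISGF3, had 217, 117 and 191 CPM on HFD at week 16, against 68.4 and 61.9 CPM on NCD. HFD replicate 2 was the lowest of the 3, yet above both NCD libraries, and the log2 fold change was 1.31 ± 0.25 (adjusted p = 0.00105), called in each of the 12 alternatives. At week 8 the HFD libraries had 104, 113 and 136 CPM, against 87.0, 73.3 and 147 CPM on NCD, where NCD replicate 3 was above all of them, and the change was 0.18 ± 0.21 (adjusted p = 0.801). Within HFD mice, Irf9 at week 16 exceeded week 2 (96.1, 103 and 79.7 CPM) by 0.78 ± 0.21 (adjusted p = 0.0244), the 1 member called there beside 3.06% of genes called higher (433 higher and 601 lower, and 766 and 388 with library-size scaling). That call did not hold without replicate 1 or 3 of either week (adjusted p 0.0709 to 0.118). The week 16 diet effect on Irf9 exceeded that in spleen by 1.16 ± 0.27 (adjusted p = 0.00614, beside 2.14% of genes higher, with 334 higher and 362 lower, and 493 and 226 with library-size scaling), and without NCD replicate 3 of VAT the adjusted p was 0.0532.

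Stat2, which acts with Irf9 in ISGF3, had 105, 58.9 and 78.3 CPM on HFD at week 16, against 68.4 and 76.1 CPM on NCD. The groups overlapped, with HFD replicate 2 below both NCD libraries, and the log2 fold change was 0.05 ± 0.23 (adjusted p = 0.945). Irf7 had 58.7, 37.9 and 48.0 CPM on HFD, against 23.1 and 23.0 CPM on NCD. All 3 HFD libraries were above both NCD libraries, and the log2 fold change of 0.95 ± 0.32 did not pass (adjusted p = 0.0644). It did pass with no filter (0.0137), by DESeq2 (0.0390), with a replicate block (0.0208), without HFD replicate 2 (0.0459) and with library-size scaling (0.0325).

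Irf1, the transcription factor of the interferon-γ arm, had 664, 423 and 665 CPM on HFD at week 16, against 263 and 227 CPM on NCD. The groups did not overlap, and the log2 fold change was 1.13 ± 0.34 (adjusted p = 0.0449). Of the 12 alternatives 6 lost this call, among them the removal of either NCD library (0.181 and 0.269), of HFD replicate 1 (0.116) or of HFD replicate 3 (0.118), a fit with no filter (0.116) and limma voom (0.0617). At week 8 Irf1 had 370.5, 500 and 503 CPM on HFD, against 297, 206 and 320 CPM on NCD, again without overlap, and was not called (0.72 ± 0.30, adjusted p = 0.293). In all, 6 of the 9 members did not overlap between the diets at week 16, all higher on HFD. Beside this, 37.6% of genes tested did not overlap in either direction, and the share higher on HFD was not counted.

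Irf8 and Socs1 were not called at any week in VAT. At week 16 Irf8 had 103, 150 and 93.0 CPM on HFD and 169 and 125 CPM on NCD (-0.46 ± 0.37, adjusted p = 0.526), and Socs1 had 38.5, 42.7 and 44.5 CPM on HFD and 61.3 and 41.8 CPM on NCD (-0.42 ± 0.52, adjusted p = 0.723). Socs1 was uneven within groups, with 88.9, 17.1 and 16.0 CPM in the 3 NCD libraries of week 2. With age on NCD, week 16 against week 0 in VAT, no member was called by edgeR, DESeq2 or limma voom, beside 0.713% of all genes (64 higher and 37 lower, and 59 and 63 with library-size scaling). By edgeR 1861 of 14164 genes were at an unadjusted p under 0.05. Of the members 2 were at that p, Irf9 (-0.54 ± 0.24) and Irf1 (-0.76 ± 0.34). Both passed when only the 2 groups were fitted (adjusted p 0.0303 and 7.8e-04). NCD week 16 held the lowest group mean in VAT for both genes, and its 2 libraries are also the NCD side of the week 16 diet comparison.

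**Figure D3:**
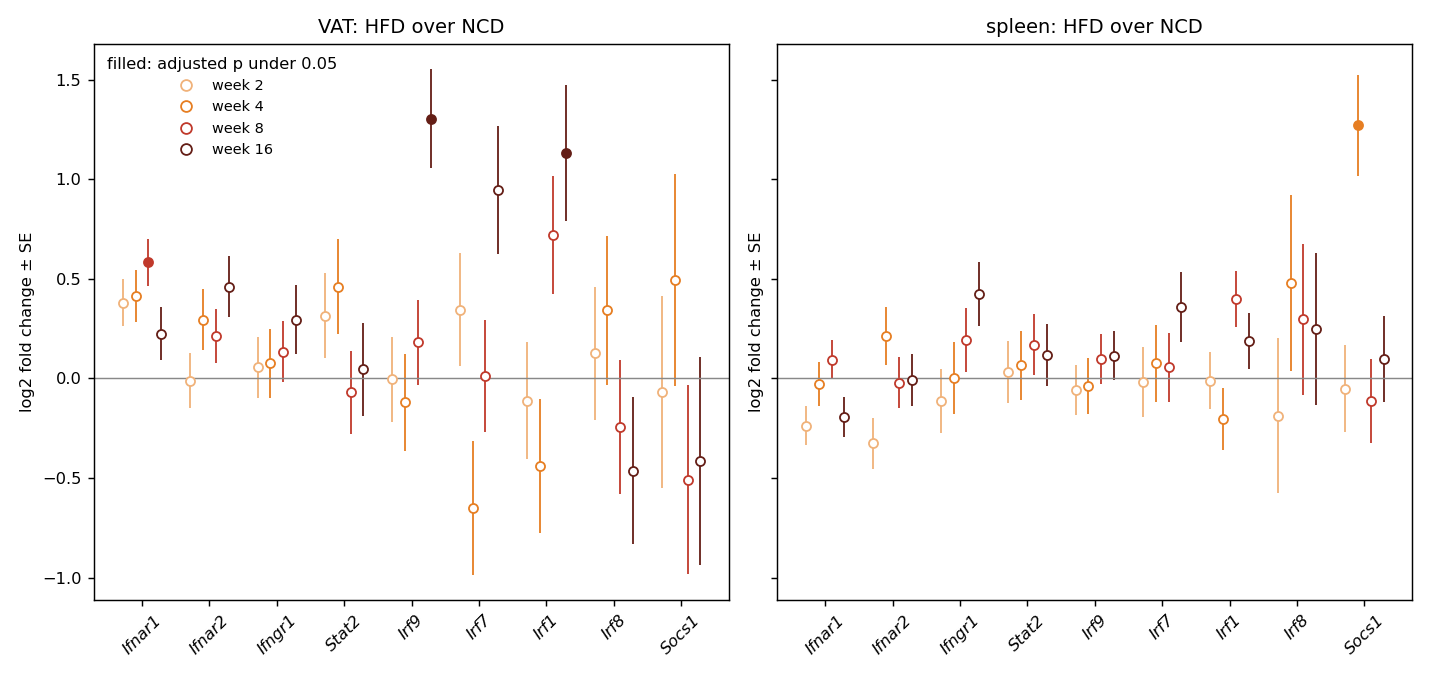
Log2 fold change (linear axis, ± SE) of HFD over NCD for the 9 genes at weeks 2, 4, 8 and 16, in VAT at left and spleen at right, filled where the adjusted p was under 0.05. In VAT the filled points are Ifnar1 at week 8 (0.58) and Irf9 and Irf1 at week 16 (1.31 and 1.13), and in spleen the filled point is Socs1 at week 4 (1.27).

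Other genes of the pathway in the same VAT comparison at week 16 were taken from 4 lists. Of 23 interferon-γ and IRF1 target genes tested, 19 were higher on HFD and 0 lower, with a median log2 fold change of 1.03, against 0.02 over all genes. Psmb10, an immunoproteasome subunit, averaged 159 CPM on HFD and 43.3 CPM on NCD (1.76 ± 0.22, adjusted p = 6.6e-06), and Gbp5, a guanylate-binding protein, 79.8 CPM and 19.9 CPM (1.88 ± 0.25, adjusted p = 1.5e-05). Of 40 type I interferon target genes, 15 were higher and 0 lower, with a median of 0.89. Rtp4, an interferon-induced gene, averaged 46.1 CPM on HFD and 2.10 CPM on NCD (4.28 ± 0.62, adjusted p = 5.3e-05). Of 17 other signalling genes, 3 were higher and 0 lower, among them Usp18, an inhibitor of type I receptor signalling, at 39.4 CPM on HFD and 1.56 CPM on NCD (4.51 ± 0.88, adjusted p = 0.00173). Of 8 other IRF family and IRF2-binding genes, Irf2bp2 was higher (1.26 ± 0.28, adjusted p = 0.00408) and Irf4, an activation-induced factor of effector Treg cells, was lower, at 91.3 CPM on HFD and 282 CPM on NCD (-1.74 ± 0.22, adjusted p = 1.6e-05). At week 8, 5 of the 23 interferon-γ and IRF1 targets and 1 of the 40 type I targets were higher. At weeks 2 and 4 no gene of either list passed by edgeR. At an unadjusted p under 0.05 were 3 and 2 of the interferon-γ and IRF1 targets and 5 and 4 of the type I targets. Over all genes 1429 and 1385 of 14164 were at that unadjusted p.

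At week 16 in VAT, genes of other programmes differed between the diets as well. The summed CPM of the immediate early and stress list was 14813 to 28511 on HFD and 41532 to 42018 on NCD. That of 7 VAT Treg genes was 3118 to 4985 on HFD and 7677 to 8435 on NCD. The 12 B cell markers summed to 1647 to 2456 CPM on HFD and 321 to 334 CPM on NCD. Most of this was Ighm, while the markers at 0 included Pax5 and Ebf1 in the HFD libraries and Cd22, Pax5, Fcmr and Vpreb3 in the NCD libraries, and the median of all VAT libraries was 1446 CPM. The 12 macrophage and monocyte markers summed to 607 to 834 CPM on HFD and 1776 to 1832 CPM on NCD, with Fcgr1 among the markers at 0 in both diets. The 8 plasmacytoid dendritic cell markers summed to 111 to 140 CPM on HFD and 210 to 213 CPM on NCD, and the 9 conventional dendritic cell markers to 21.2 to 29.6 CPM on HFD and 11.6 to 11.9 CPM on NCD. Siglech, a defining marker of plasmacytoid dendritic cells, was at 0.473 CPM, under the floor, in 1 HFD library and at 0 in the other HFD libraries and in both NCD libraries. The 8 endothelial and erythroid markers summed to 85.9 to 147 CPM on HFD and 34.2 to 37.1 CPM on NCD, most of it Pecam1. The 9 adipocyte and stromal markers summed to 1.59 to 3.43 CPM on HFD and 7.42 to 9.59 CPM on NCD, with the adipocyte gene Adipoq at 0 in both. The 8 regulatory T cell markers summed to 7198 to 8006 CPM on HFD and 8084 to 8237 CPM on NCD. The diets overlapped for the NK and CD8 cell list, and the granulocyte list was at 0 in all 5 libraries. The part of these genes in the diet results was not tested. HFD replicate 3 of week 16 had the lowest median correlation with the other VAT libraries (r = 0.925).

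In spleen, HFD against NCD gave 1 call among the members in the 4 weeks, Socs1, the inhibitor, higher at week 4. At weeks 2, 8 and 16 and for the mean of weeks, and within HFD mice between week 16 and week 2, no member was called by edgeR over 14686 genes, DESeq2 or limma voom. Of all genes 0.0272%, 0%, 0%, 0.933% and 0% were called. At an unadjusted p under 0.05 by edgeR were 2, 1, 2, 1 and 2 members, beside 1402, 716, 975, 2101 and 1108 of the 14686 genes. Socs1 at week 4 had 77.1, 55.7 and 59.4 CPM on HFD, against 22.5 and 30.4 CPM on NCD. The groups did not overlap, and the log2 fold change was 1.27 ± 0.25 (adjusted p = 0.00719), beside 1.2% of genes called higher. The call did not hold without either NCD library (adjusted p 0.0842 and 0.154), and NCD replicate 2 had the lowest median correlation with the other spleen libraries (r = 0.916). Socs1 also differed over time on NCD, with 74.5, 54.9 and 50.7 CPM at week 16, against 24.0, 25.2 and 34.4 CPM at week 0 (1.08 ± 0.22, adjusted p = 0.0170, beside 0.599% of genes higher). This call was lost without replicate 1 or 2 of week 0 or replicate 1 of week 16 (0.109 to 0.139) and when only the 2 groups were fitted (0.0540). Group means of Socs1 in spleen ran from 26.4 ± 5.59 CPM at NCD week 4 (n = 2) and 27.9 ± 5.73 CPM at week 0 (n = 3) up to 71.5 ± 7.60 CPM at NCD week 8 (n = 3), and no 2 neighbours in that order were free of overlap.

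For the other members across the 9 spleen groups, the highest group mean was 1.20 times the lowest for Ifnar1, 1.33 for Ifnar2, 1.42 for Ifngr1, 1.18 for Stat2, 1.17 for Irf9, 1.38 for Irf7 and 1.29 for Irf1, and 2.05 times for Irf8, and none of these genes had neighbouring groups free of overlap. In VAT the same ratio was 2.80 for Irf7, 2.68 for Irf9 and 2.38 for Irf1, each with HFD week 16 as the highest group. For each of these 3 genes its libraries overlapped those of the group next below. Of the 8 pairs of neighbours in the order of the VAT means, 1 did not overlap for Ifnar1, Stat2, Irf9 and Irf7, and 0 for the other members. How many of all genes had such gaps was not counted in either tissue, so these counts do not set the members apart. Between the diets in spleen, edgeR called none of the 23 interferon-γ and IRF1 targets, 40 type I targets or 17 other signalling genes at any week. The counts at an unadjusted p under 0.05 were at most 8, 9 and 2, and those of the target lists came from week 16. Over all 14686 genes 1402, 1414, 716 and 975 were at that unadjusted p at weeks 2, 4, 8 and 16. Of the 8 other IRF genes, Irf2bpl was higher at week 4 (2.10 ± 0.39, adjusted p = 0.00524).

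The third comparison set VAT Treg cells cultured with IFNα against control cultures. The downstream genes of the type I arm were higher with IFNα, Irf7 by the most, then Stat2 and Irf9, Ifnar2 was higher by a smaller amount, and Irf8 and Irf1 were lower. By edgeR's test over 12604 genes, 4 members were called higher and 2 lower, beside 21.7% of all genes called, 10.6% higher and 11% lower.

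Irf7 had 881 and 822 CPM with IFNα, against 21.7, 26.4 and 24.5 CPM in control cultures, a 36.0-fold difference (log2 fold change 5.17 ± 0.10, adjusted p = 2.2e-19). Stat2 had 336 and 324 CPM with IFNα, against 69.0, 63.3 and 61.0 CPM in control cultures (2.40 ± 0.09, adjusted p = 1.8e-14). Irf9 had 318 and 317 CPM with IFNα, against 118, 133 and 125 CPM in control cultures (1.38 ± 0.09, adjusted p = 1.1e-10). For these 3 genes the cultures of a group lay close together and the groups far apart, and the calls held in all 11 alternatives.

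Among the receptor chains, Ifnar2 had 109 and 107 CPM with IFNα, against 85.7, 86.6 and 89.8 CPM in control cultures (0.35 ± 0.10, adjusted p = 0.0124), and the call did not hold without either IFNα culture (adjusted p 0.0591 and 0.0661). Ifnar1 had 193 and 175 CPM with IFNα, against 205, 203 and 221 CPM in control cultures (-0.14 ± 0.09, adjusted p = 0.265). Ifngr1 had 1679 and 1644 CPM with IFNα, against 1955, 1605 and 1954 CPM in control cultures (-0.10 ± 0.08, adjusted p = 0.398). Neither of these 2 was called.

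Irf8 had 12.9 and 17.2 CPM with IFNα, against 45.1, 59.8 and 80.9 CPM in control cultures (-1.97 ± 0.26, adjusted p = 4.3e-04). Irf1 had 168 and 179 CPM with IFNα, against 251, 246 and 244 CPM in control cultures (-0.47 ± 0.08, adjusted p = 3.8e-04). Both genes were lower in each IFNα culture than in every control culture. Socs1 had 358 and 193 CPM with IFNα, against 367, 382 and 434 CPM in control cultures, and the 2 IFNα cultures differed more from each other than the control cultures did (-0.49 ± 0.31, adjusted p = 0.386). Without IFNα replicate 1 it was called lower (-0.97, adjusted p = 6.7e-07), with the remaining culture assumed to vary like the control cultures. Its levels in culture, 193 to 434 CPM, were above the 16.0 to 88.9 CPM of all VAT libraries; cultures and mouse libraries differ in genotype and treatment and were not compared by a test.

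**Figure D4:**
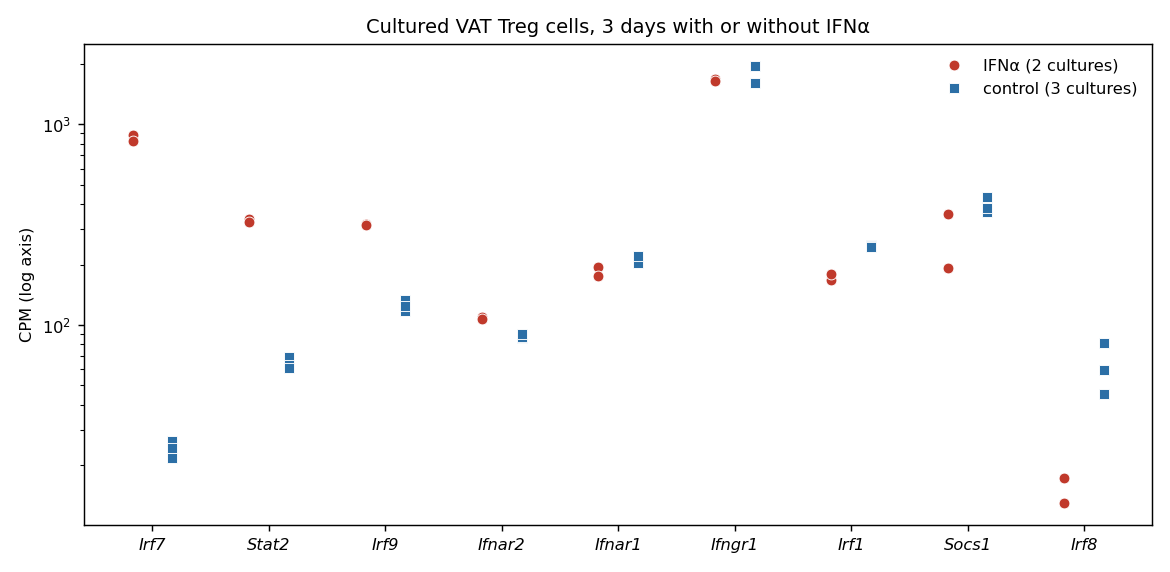
CPM (log axis) of the 9 genes in each culture, IFNα as red circles left (2 cultures) and control as blue squares right (3 cultures). Irf7, Stat2 and Irf9 are higher with IFNα (Irf7 822 to 881 against 21.7 to 26.4 CPM), Irf8 and Irf1 are lower, and the 2 IFNα cultures of Socs1 lie apart.

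All 40 type I interferon targets were called higher with IFNα, with a median log2 fold change of 3.15 against 0.01 over all genes, and 18 of 23 interferon-γ and IRF1 targets were higher and 0 lower, with a median of 0.62. Ifit3, an antiviral interferon-induced gene, averaged 824 CPM with IFNα and 0.519 CPM in control cultures (10.55 ± 0.15, adjusted p = 5.5e-21), and Usp18 819 CPM and 11.7 CPM (6.15 ± 0.11, adjusted p = 1.1e-19). Of 17 other signalling genes 3 were higher and 1 lower, the phosphatase gene Ptpn6 (-0.77 ± 0.10, adjusted p = 1.1e-05). Of 8 other IRF genes 4 were higher, among them Irf4 (0.68 ± 0.12, adjusted p = 4.4e-04), and 1 was lower, Irf2bpl, at 15.6 CPM with IFNα and 31.4 CPM in control cultures (adjusted p = 0.0166). The summed CPM of the plasmacytoid dendritic cell list was 930 to 956 with IFNα and 98.2 to 141 in control cultures; Siglech was at 0 in all 5 cultures, and the list holds Bst2, which is also on the type I target list. The 8 Treg markers summed to 6094 to 6198 CPM with IFNα and 7424 to 7755 CPM in control cultures. The 12 macrophage and monocyte markers summed to 106 to 121 CPM with IFNα and 177 to 218 CPM in control cultures. Most of this was Ccr2, at 101 to 117 CPM with IFNα and 168 to 207 CPM in control cultures, and Cd14 was at 0 in all 5. The 10 NK and CD8 cell markers summed to 51.6 to 52.7 CPM with IFNα and 40.5 to 43.3 CPM in control cultures. Sums were also higher with IFNα for the conventional dendritic cell list (14.2 to 19.4 CPM with IFNα and 11.2 to 13.1 CPM in control cultures) and the endothelial and erythroid list (186 to 189 CPM with IFNα and 168 to 177 CPM in control cultures). The granulocyte list was at 0 to 0.130 CPM with IFNα and 1.03 to 1.81 CPM in control cultures. The part of these lists in the results was not tested.

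Set side by side, with no test between the experiments, IFNα in culture and HFD at week 16 in VAT gave 1.38 ± 0.09 and 1.31 ± 0.25 for Irf9. They gave 2.40 ± 0.09 and 0.05 ± 0.23 for Stat2, and 5.17 ± 0.10 and 0.95 ± 0.32 for Irf7. For Irf1 they gave -0.47 ± 0.08 and 1.13 ± 0.34, so the 2 calls had opposite signs, and for Irf4 likewise 0.68 ± 0.12 and -1.74 ± 0.22. In the comparison of VAT with spleen without HFD, 34 of the 40 type I targets were lower in VAT and 2 were higher. Of the 23 interferon-γ and IRF1 targets, 16 were lower and 4 higher. Beside this, 30% of all genes tested were called lower and 29.1% higher. The medians of the 2 lists were -0.92 and -0.63, against -0.04 over all genes. Usp18 averaged 6.67 CPM in VAT and 126 CPM in spleen (-4.31 ± 0.23, edgeR adjusted p = 1.2e-18). Irf4 averaged 184 CPM and 42.8 CPM (2.37 ± 0.12, edgeR adjusted p = 1.5e-19).

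The genes most like each member were taken over the 18 group means of the 2 tissues, as those with the smallest mean absolute difference in log2 CPM after each gene was centred on its own mean, among 8410 genes. Irf9, with a range of 2.19 over the groups, was followed most closely by Rassf2 and Fam169b (0.09 and 0.10), and Irf1, with a range of 1.43, had Relb among its nearest genes (0.12). Ifngr1 (range 2.23) was nearest to Cish and Sgms1 (0.17 and 0.19), Irf8 (2.34) to Map2k3 and Clcn5 (0.14 and 0.16), and Irf7 (2.26) to Ssh2 and Trim59 (0.15 and 0.16). For Stat2 they were Pnisr and Cd3e, for Ifnar1 Slc25a36 and Pisd, for Ifnar2 Pdrg1 and Skap1, and for Socs1 Mboat7 and Fbxo9. All 18 points share the split between the tissues, and how far the likeness rests on it was not tested.

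The members lie in mm10 (GENCODE M21) at chr16:91485238-91507441 (Ifnar1), chr16:91372783-91405589 (Ifnar2), chr10:19591949-19610229 (Ifngr1), chr10:128270559-128292849 (Stat2), chr14:55603571-55610030 (Irf9), chr7:141262706-141266481 (Irf7), chr11:53770014-53778374 (Irf1), chr8:120736358-120756694 (Irf8) and chr16:10782240-10785536 (Socs1). Ifnar2 shares 9.46% of its exonic bases with Gm21970 and Irf9 2.28% with Rnf31 on the same strand, and Irf1 shares 3.4% with Gm17334 and Irf7 1.19% with Phrf1 on the opposite strand. Reads from these stretches cannot be assigned to 1 gene from the counts, and no source used here gives the strand setting of the counting.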

How the data were processed

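RNA was measured in 51 libraries of sorted Treg cells from VAT and spleen and in 5 libraries of cultured VAT Treg cells. The deposited values are raw counts of reads per gene symbol; per the submitters' processing notes, the authors aligned reads to mm10 with STAR 2.7.3a and counted them with featureCounts, and per the labels' protocols libraries were made with 18 PCR cycles and read as pairs of 38 bases. No source used here gives the strand setting of the counting. Groups came from the sample titles, since the spleen libraries carry the VAT tissue label.

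CPM is 1000000 times the count over the library total, and CPM per kb divides by the union exon length in GENCODE M21, to which 52936 of 55011 symbols matched. The counts were tested with edgeR 4.0.16 in R 4.3.3 (TMM normalization, expression filter by group, robust quasi-likelihood fit, Benjamini-Hochberg adjustment over all genes tested, call at an adjusted p under 0.05), in 4 fits: VAT, spleen, both tissues, and culture. Standard errors are the absolute log2 fold change over the square root of F. As alternatives, other tools (DESeq2 1.42.0 and limma 3.58.1 with voom and sample weights), other scaling (RLE, and library-size scaling, the last chosen after seeing the data), all genes without the filter, the compared groups fitted alone, a replicate block, and each library left out in turn were run. The main procedure was tested on simulated data, with 100 genes changed 2-fold and 100 changed 4-fold. It found 36 and 71 of them for VAT week 16, and 35 and 66 for spleen week 4. For culture it found 75 and 94, and for VAT over spleen without HFD 68 and 87. False calls were 4, 5, 7 and 11 in that order. A member that was not called may therefore still differ. The simulations changed far fewer genes than the 59.1% called between tissues without HFD and the 21.7% called in culture. Their false calls do not cover data in which so many genes differ.

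The members and lists were chosen with earlier results of these data known. Per list and comparison, up to 3 called genes of lowest p could be named, and values of a gene named once may be given for other comparisons; some genes picked this way are not reported here.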

Additional observations from a re-analysis of the deposited data

Results flagged for a closer look

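The mean HFD effect on Ifnar1 over the 4 weeks differed between VAT and spleen by 0.48 ± 0.08 on the log2 scale (edgeR adjusted p = 3.3e-04 for the difference itself). The HFD effect on Irf9 at week 16 differed between the tissues by 1.16 ± 0.27 (edgeR adjusted p = 0.00614).

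The other 3 patterns are pairs of weeks at which every HFD library lay on one side of the NCD libraries at 1 week and on the other side at another. For Irf1 in VAT the log2 fold change was -0.44 at week 4, 0.72 at week 8 and 1.13 at week 16. For Irf7 in VAT it was -0.65 at week 4, with both HFD libraries at 17.2 and 17.3 CPM against 22.5 to 32.5 CPM on NCD, and 0.95 at week 16. For Ifnar2 in spleen it was -0.33 at week 2, with 135 to 147 CPM on HFD against 154 to 198 CPM on NCD, and 0.21 at week 4, with 162 to 169 CPM on HFD against 132 and 153 CPM on NCD. These differences between weeks were not tested, and of the values in these 3 patterns only that of Irf1 at week 16 passed the adjusted threshold. That call was lost in 6 of the 12 alternatives. How many of all genes showed such a reversal was not counted. At week 16 in VAT 37.6% of genes tested did not overlap between the diets.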

How the results depend on the processing

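Of 171 member results, 31 were called, and none of these changed sign under any alternative run; 127 were called under no setting, 54 of them with a sign change, and 13 were called only under an alternative. In VAT at week 16 the count of members called was 2, against 4 by DESeq2, 1 by limma voom, 4 with library-size scaling and 1 to 4 with a library left out. For the mean of weeks in VAT it was 1, against 2 with no filter, 2 by DESeq2 and 1 to 4 with a library left out. With a library left out the count was 0 to 1 at weeks 2 and 8 in VAT (0 and 1 with all libraries), for HFD week 16 over week 2 in VAT (1), for HFD at week 4 in spleen (1) and for NCD week 16 over week 0 in spleen (1), and it was 1 to 2 for the mean difference between tissues (1) and 0 to 1 for that of week 16 (1). Fitting only the groups compared gave 2 for NCD week 16 over week 0 in VAT (0) and 0 in spleen (1), and the week 16 difference between tissues gave 2 with no filter and 2 with library-size scaling. The tissue comparisons kept 8 calls each and culture 5 to 6 with a library left out. The cause of these changes was not tested.

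Counts over all genes moved by over 1.5 times as follows. With no filter and by DESeq2 they were 162 and 70 against 8 (VAT week 2), 115 and 61 against 3 (VAT week 4), 465 and 423 against 189 (VAT week 8), 399 and 342 against 101 (NCD over time in VAT), 85 and 37 against 4 (spleen week 2), 305 and 307 against 182 (spleen week 4), 26 and 1 against 0 (spleen week 8), 26 and 21 against 0 (spleen week 16), 483 and 386 against 137 (spleen mean), 273 and 270 against 96 (NCD over time in spleen), 56 and 24 against 0 (HFD over time in spleen) and 797 and 631 against 380 (mean difference between tissues). Fitting only the groups compared gave 789 against 1309 (VAT week 16), 830 against 101 (NCD over time in VAT), 378 against 696 (week 16 difference between tissues), 13 against 8, 34 against 3, 16 against 4 and 1 against 0 (VAT weeks 2 and 4, spleen weeks 2 and 8). By limma voom the counts were 17, 11 and 388 for VAT weeks 2 and 4 and NCD over time in VAT. With library-size scaling they were 4 for VAT week 2 and 3 for HFD over time in spleen. With a library left out the widest ranges were 37 to 248 (VAT week 8), 643 to 1273 (VAT week 16), 1 to 37 (NCD over time in VAT), 0 to 268 (spleen week 4) and 1901 to 2590 against 2732 (culture).

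Replicate numbers gave little sign of pairing across the series, though correlations cannot show whether libraries of the same number came from the same mouse. None of the 5 diet pairs of groups with 3 shared numbers, and 1 of 6 tissue pairs, had every correlation of deviations over 0.1 (r from -0.14 to 0.32 and from -0.19 to 0.35). The exception was VAT and spleen at HFD week 16, with r of 0.136 to 0.354 for shared numbers and a mean of -0.125 for other numbers. These groups enter the week 16 difference of Irf9 between tissues, which was 1.03 with the replicate block (edgeR adjusted p = 0.0124) and 1.16 without it. The fit with a replicate block gave 3 members at week 16 in VAT, 1 at week 8, 8 in each tissue comparison and 6 in culture, and moved the counts over all genes by more than 1.5 times at VAT week 2 (21) and week 4 (5). Depth limits the low members most, down to 57 counts for Irf7 and 59 for Irf8.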
